A study of Mus musculus with 15 samples.

Results

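Bone marrow-derived macrophages (BMDMs) of the mouse that had been held in IL-4 and given control nanoparticles were compared with the M1-like standard of the same experiment, macrophages exposed to monophosphoryl lipid A. The comparison takes the 4 samples labelled IL4.eGFP (eGFP-NP) and the 4 samples labelled MPLA, 8 of the 15 samples of the series, chosen by their titles alone, and the 754 genes of the probe table without its positive and negative control probes. All groups were bone marrow progenitors grown for 7 days in medium with 20 ng/mL M-CSF. MPLA macrophages were then kept for 4 days in 20 ng/mL monophosphoryl lipid A, an agonist of Toll-like receptor 4 (TLR4), and received no nanoparticle. The cytokine exposure of eGFP-NP macrophages was 4 days of IL-4 at 20 ng/mL, and eGFP-mRNA nanoparticles (1 µg, for 1 h) were added and then washed off. The labels are the source of this amount, for which the study's methods state a different figure, as mRNA, and which applies is not settled. The particles have a core of cationic poly(β-amino ester) polymer and mRNA under a coat with di-mannose, a sugar bound by the mannose receptor CD206. By the study's methods, only the most strongly eGFP-positive cells were sorted, and they returned to IL-4 at a lower dose before RNA was isolated, whereas no such sort is described for the standards. Cytokine, nanoparticle, sort and time in culture therefore differ together between the groups and cannot be told apart. Strain, sex and age of the mice are not given in the sources used here.

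Macrophages read microbial products through TLR4, which with the co-receptor CD14 binds lipopolysaccharide and its detoxified derivative monophosphoryl lipid A. The receptor signals through NF-κB to cytokine and chemokine genes and through type I interferon to antiviral genes. IL-4 acts through its receptor and the transcription factor STAT6, which in mouse macrophages induces the chitinase-like proteins, the mannose receptor and PPARγ, and the macrophage states under these opposed signals are commonly named M1-like and M2-like. The eGFP-NP group is the control for nanoparticles carrying IRF5 mRNA, and its comparison with MPLA asks how far macrophages that received an inert cargo stood from the M1-like standard.

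The libraries eGFP-NP 1 and 2 differed by no more than sampling noise (chi-square test over genes whose counts in the pair added up to 40 or more, p = 0.0817, statistic 1.09 per degree of freedom). They were therefore added together as 1 sample, written eGFP-NP 1-2, which leaves n = 3 against n = 4. With a minimum of 10 the chi-square p was 0.111, and with 100 it was 0.0162. Further pairs were nearly identical but differed by more than noise and were kept apart, namely MPLA 1 and 4 (statistic 2.56), MPLA 2 and 3 (1.98) and eGFP-NP 3 and 4 (1.36). The statistic was 41.4 to 51.3 in the other MPLA pairs and 978 to 1009 in the other eGFP-NP pairs. Nothing in the labels says that samples came from separate cultures or animals, so p-values measure only the spread between these samples, which may be technical. Gene counts totalled 1618914 to 1784833 in MPLA, 1479122 and 1524232 in eGFP-NP 1 and 2, and 832822 and 738305 in eGFP-NP 3 and 4, so raw counts of the last pair run at about their lower total. Background, the mean of the 8 negative controls of a library plus 2 SD, lay at 19.7 to 33.4 counts, with 560 to 581 genes above it in MPLA and 471 to 547 in eGFP-NP.

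The eGFP-NP libraries also stood apart from each other. Over 18 fibroblast and matrix genes (collagens, fibronectin, PDGF receptors and others that macrophages express little), 12.1 to 13.8% of all gene counts in MPLA and 7.94 and 7.91% in eGFP-NP 3 and 4 fell on the list, against 0.0182 and 0.0192% in eGFP-NP 1 and 2. Col1a2, a chain of type I collagen, gave 43580 to 51759 counts in MPLA, 17721 and 15576 in eGFP-NP 3 and 4, and 18 and 14 in eGFP-NP 1 and 2. None of the 18 genes was at 0 in any library, but only 1 and 2 of them were above background in eGFP-NP 1 and 2, against 16 in each other library. Pan-macrophage genes (18 in the table, among them Csf1r, Adgre1, Cd68 and Itgam) made up 11.7 to 12.6% of counts in MPLA and eGFP-NP 3 and 4 and 23.9% in each of eGFP-NP 1 and 2. At least 17 of the 18 were above background in every library, so the markers of the labelled cell type were present. Fewer cells of a type and less RNA per cell cannot be told apart in such bulk samples. The part of this split in the results below was not tested. Values without eGFP-NP 1-2 are given beside counts of calls and beside some of the genes for which they differ, so a gene without one may differ too. That fit sets only eGFP-NP 3 and 4, a nearly identical pair, against MPLA. Its small p-values therefore measure the spread between near copies, which may be technical.

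**Figure D1:**
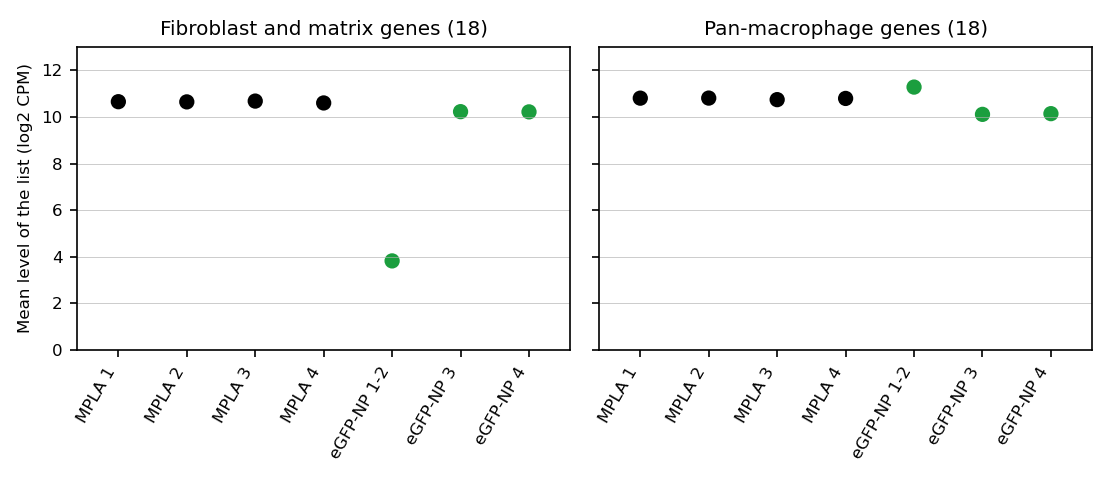
Mean level (log2 CPM, counts scaled to library size, on a log2 scale) of 18 fibroblast and matrix genes on the left and 18 pan-macrophage genes on the right, 1 point per library, MPLA in black and eGFP-NP in green. The fibroblast mean was 10.60 to 10.68 in MPLA, 10.23 and 10.22 in eGFP-NP 3 and 4, and 3.82 in eGFP-NP 1-2, whereas the pan-macrophage mean was highest in eGFP-NP 1-2 (11.28).

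Between the groups, 148 of 754 genes were called (19.6%), 54 higher (7.16%) and 94 lower (12.5%) in eGFP-NP than in MPLA, by edgeR's quasi-likelihood test with a Benjamini-Hochberg adjusted p under 0.05. Adjusted p-values below are from this fit, and differences are log2 of eGFP-NP over MPLA ± standard error. The median difference was 1.64 among genes called higher and -1.66 among those called lower, and at least 4-fold in 19 and 38 of them. Every gene called lower, and 53 of the 54 called higher, had groups that did not overlap, and over all genes 115 (15.3%) were higher and 190 (25.2%) lower in all eGFP-NP libraries. The exception was Edn1, the precursor of the vasoconstrictor endothelin-1, named here after its values were seen, with 59 to 93 counts in MPLA, 37 and 34 in eGFP-NP 1 and 2, and 1153 and 1003 in eGFP-NP 3 and 4. Of the genes called higher, 10 were below background in all 7 libraries and have no measured level, among them the eosinophil ribonuclease gene Ear3, the dendritic cell lectin gene Clec9a and the chemokine gene Ccl21a. Without eGFP-NP 1-2 the calls rose to 428 (56.8%), 203 higher (26.9%) and 225 lower (29.8%), and 53 of the 54 and 91 of the 94 genes were still called. Leaving out 1 MPLA library gave 74 (without MPLA 1), 77 (MPLA 2), 87 (MPLA 3) or 75 (MPLA 4) calls. Summing each nearly identical pair to 1 sample (n = 2 against n = 2) gave 0 calls with 113 genes at an unadjusted p under 0.05. Scaling by the positive controls in place of TMM (trimmed mean of M-values, edgeR's scaling) gave 17 higher and 368 lower and moved the median of all genes from 0.06 to -0.99. Of the 58 named genes that were called, 12 lost the call whichever MPLA library was left out (Ccr3, Ccrl2, Cd36, Clec9a, Cxcl1, Cxcl5, Irf4, Irf5, Itgax, Ly6c1, Mmp19 and Stab1) and 6 lost it for some of them (Cebpa, H2-Ob, Il1b, Isg15, Nlrp3 and Plau). The count of 428 sets eGFP-NP 3 and 4, a nearly identical pair, against MPLA. The median SD over 433 genes above background in all 7 libraries was 0.554 log2 units in eGFP-NP against 0.106 in MPLA.

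**Figure D2:**
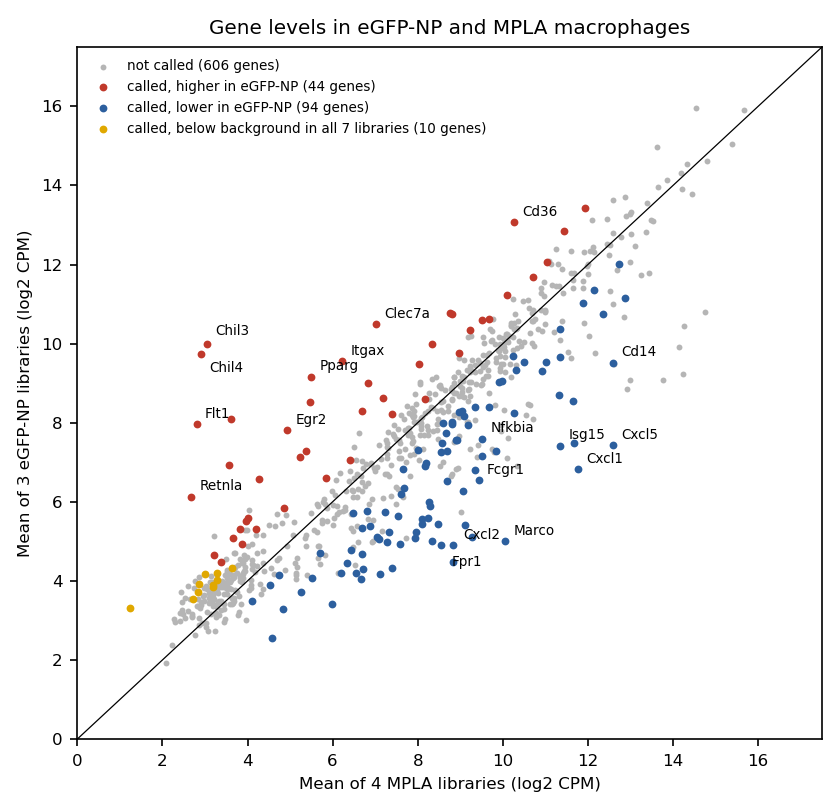
Mean level of each of the 754 genes in the 4 MPLA libraries (horizontal axis, log2 CPM) and the 3 eGFP-NP libraries (vertical axis, log2 CPM), with the line of equal levels. Genes called higher in eGFP-NP are red (44), genes called lower are blue (94), called genes below background in all 7 libraries are yellow (10) and the 606 genes not called are grey. Chil3, Chil4 and Flt1 lie farthest above the line and Marco, Cxcl1 and Cxcl5 far below it.

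Of 32 IL-4 response genes in the table, 13 were called higher and 1 lower in eGFP-NP, against 7.16% and 12.5% of all genes, and their median difference was 1.05 against 0.06 over all genes. The 13 include Ear3, below background in all 7 libraries, and Edn1, whose groups overlapped. Without eGFP-NP 1-2 there were 18 higher and 3 lower, against 26.9% and 29.8% of all genes in that fit. With any 1 MPLA library left out there were 9 higher and 1 lower. Among the 22 genes above background in at least 3 libraries, 11 were called higher and 1 lower. Background subtraction gave 9 higher and 1 lower. Positive control scaling gave 10 higher and 8 lower with a median of 0.13, all samples in the fit 7 higher and 0 lower, and the methods' t-test after Benjamini-Yekutieli adjustment 3 higher and 0 lower. Chil3, which encodes the chitinase-like protein Ym1, gave 10, 12, 14 and 12 counts in MPLA 1 to 4 and 10726, 10897, 296 and 291 in eGFP-NP 1 to 4. All MPLA counts were below background and all eGFP-NP counts above it. The mean eGFP-NP level was at least 61.6-fold higher, or at least 19.6-fold without eGFP-NP 1-2. The fitted difference was 8.98 ± 1.55 (adjusted p = 0.00887), and 5.61 without it. With MPLA below background only the bound is measured, and the fitted value ranged from 5.61 to 15.4 over the alternatives. Its close relative Chil4 (Ym2), whose sequence is so similar that the probes may share targets, gave 10 to 11 counts in MPLA and 8837, 9047, 270 and 227 in eGFP-NP, at least 51.6-fold higher (16.6-fold without eGFP-NP 1-2). Both genes were far lower in eGFP-NP 3 and 4 than in 1 and 2, yet every eGFP-NP library lay far above every MPLA library.

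Retnla, which encodes the secreted protein Fizz1 and is a widely used M2 marker, gave 10, 6, 11 and 9 counts in MPLA and 123, 139, 55 and 39 in eGFP-NP, at least 4.13-fold higher (3.85 ± 0.40, adjusted p = 0.00124). These counts were low in absolute terms, since the IL4 standard, held in IL-4 without particles, had 1532 to 55590 counts of Retnla. Without eGFP-NP 1-2 its bound against MPLA was 3.10-fold and its fitted difference 3.37. Rnase2a, an eosinophil-type ribonuclease gene whose paralogs may share its probe, had 12, 20, 18 and 29 counts in MPLA and 997, 1054, 137 and 124 in eGFP-NP, at least 16.3-fold higher (8.72-fold without eGFP-NP 1-2), and 329 to 15945 in IL4. Its fitted difference was 5.16 ± 0.83 (adjusted p = 0.00634), and 3.73 without eGFP-NP 1-2. Flt1, a receptor for VEGF, stood at 4 to 16 counts in MPLA and at 618, 664, 155 and 133 in eGFP-NP, at least 14.9-fold higher (5.61 ± 0.67, adjusted p = 0.00213). Without eGFP-NP 1-2 the bound was 9.61-fold and the fitted difference 4.74. For Retnla, Rnase2a and Flt1 all MPLA counts were below background, so only the bounds are measured and the fitted sizes are uncertain.

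The transcription factors of this list were led by Pparg, which drives lipid uptake and oxidation in macrophages. It gave 69, 63, 93 and 81 counts in MPLA and 396, 417, 665 and 605 in eGFP-NP, a difference of 3.75 ± 0.28 (adjusted p = 0.000331). Unlike Chil3 it was higher in eGFP-NP 3 and 4 (9.44 and 9.50 log2 CPM) than in 1-2 (8.56). Egr2, an immediate early factor linked to M2 programs, rose from 44 to 61 counts in MPLA to 575, 592, 130 and 130 in eGFP-NP (3.23 ± 0.53, adjusted p = 0.00693), 2.37 without eGFP-NP 1-2. Irf4, an IL-4-induced member of the interferon regulatory factor family, was below background in all MPLA libraries (18 to 28 counts) and above it in eGFP-NP 1-2 and 4 (85, 93, 22 and 25 counts in eGFP-NP 1 to 4). It was called higher (adjusted p = 0.0351), with no fold given. Ptgs1, the constitutive cyclooxygenase, had a similar level in all eGFP-NP libraries (11.05, 10.65 and 10.63 log2 CPM) and was 2.02 ± 0.21 above MPLA (adjusted p = 0.00127). The 1 member called lower was Hpgd, the enzyme that degrades prostaglandins, at 148 to 275 counts in MPLA and 49, 52, 37 and 31 in eGFP-NP (-1.55 ± 0.28, adjusted p = 0.0107). Mmp12, the macrophage elastase and the most abundant member not called by this fit, gave 38440 to 45852 counts in MPLA and 214608, 219814, 33982 and 30132 in eGFP-NP (1.92 ± 0.66, adjusted p = 0.0834). Without eGFP-NP 1-2 it was called (0.64, adjusted p = 0.00027), in a fit that rests on the nearly identical pair eGFP-NP 3 and 4.

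Promoter sequence is shown for a pair of genes called higher whose window, the 250 bases before the annotated start of RefSeq's GRCm38.p6 table, held a palindrome of the type bound by STAT6, TTC and GAA with 4 bases between them, read on both strands. Capitals mark the match. The Retnla window lies at chr16:48842359-48842608 on the plus strand with the match starting at -145 from the gene's start, and that of Itgax at chr7:128129300-128129549 on the plus strand with the match at -127.
Retnla: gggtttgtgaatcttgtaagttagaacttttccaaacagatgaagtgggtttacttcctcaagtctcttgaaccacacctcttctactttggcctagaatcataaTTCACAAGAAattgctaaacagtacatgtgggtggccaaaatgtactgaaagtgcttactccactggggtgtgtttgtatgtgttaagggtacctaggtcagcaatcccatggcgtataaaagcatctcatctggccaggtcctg
Itgax: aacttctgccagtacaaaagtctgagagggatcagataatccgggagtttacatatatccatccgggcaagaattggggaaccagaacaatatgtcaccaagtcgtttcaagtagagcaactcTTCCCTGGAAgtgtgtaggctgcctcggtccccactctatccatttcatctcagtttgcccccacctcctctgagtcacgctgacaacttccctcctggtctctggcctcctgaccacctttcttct
Windows were given for 578 of the 754 genes. Shares are of genes, and a gene with several windows counted if any of them held a match. The palindrome was in 6 of 44 genes called higher without overlap (13.6%) and 3 of 71 genes called lower (4.23%). It was in 6.23% of the genes of the table with a window and 6.76% of 27025 genes of the assembly. GAGGAA, the core bound by the macrophage factor PU.1, was in 50.0% and 38.0% of these genes called higher and lower. It was in 37.0% of the genes of the table and 25.9% of those of the assembly. A match is a description of the letters, not of a bound site.

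Receptors that macrophages use to take up particles and lipids were called in both directions. Of 9 scavenger and mannose receptor genes, 3 were called higher (Cd36, Mrc1, Lgals3) and 3 lower (Marco, Stab1, Siglec1), against 7.16% and 12.5% of all genes. With any 1 MPLA library left out, the calls were 0 higher and 2 lower, and limma called 0 higher and 3 lower. Without eGFP-NP 1-2 there were 4 higher and 3 lower, against 26.9% and 29.8% of all genes in that fit. Cd36, which takes up oxidised lipoproteins and fatty acids and is a target of PPARγ, gave 2038, 2171, 2326 and 1946 counts in MPLA and 37958, 39421, 3915 and 3675 in eGFP-NP (3.58 ± 0.82, adjusted p = 0.0258), 1.85 without eGFP-NP 1-2. Mrc1, the mannose receptor CD206 to which the particle coat is directed, had 572, 1018, 1146 and 523 counts in MPLA and 3880, 4018, 1106 and 1011 in eGFP-NP, a difference of 2.08 ± 0.52 (adjusted p = 0.0331), 1.39 without eGFP-NP 1-2. Among the largest decreases was that of Marco, a class A scavenger receptor for bacteria and particles. Its counts were 1614, 2051, 2146 and 1554 in MPLA and 11, 14, 49 and 40 in eGFP-NP (-4.89 ± 0.58, adjusted p = 0.00213), and it was below background in eGFP-NP 1 and 2. Stab1, which clears modified lipoproteins (-1.82 ± 0.43, adjusted p = 0.0277, -2.48 without eGFP-NP 1-2), and Siglec1, which binds sialic acid (-1.65 ± 0.23, adjusted p = 0.00435), were also lower. Cd68, a lysosomal scavenger protein of all macrophages, was not called (1.12 ± 0.50, adjusted p = 0.165), but was without eGFP-NP 1-2 (0.27, adjusted p = 0.0456).

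Among 16 other pattern recognition receptors, 4 were called lower and 1, Clec7a, higher, against 12.5% and 7.16% of all genes. Without eGFP-NP 1-2 the calls were 10 lower and 3 higher (29.8% and 26.9% of all genes in that fit), and without MPLA 1, 2 or 4 they were 2 lower and 1 higher. It encodes Dectin-1, the receptor for fungal β-glucan, with 190, 224, 274 and 211 counts in MPLA and 2635, 2584, 1037 and 958 in eGFP-NP, a difference of 3.57 ± 0.34 (adjusted p = 0.000854). Tlr2, the receptor for bacterial lipopeptides, stood at 471 to 601 counts in MPLA and 63, 77, 56 and 43 in eGFP-NP (-2.42 ± 0.17, adjusted p = 0.000331). Tlr9, for unmethylated DNA (-1.48 ± 0.19, adjusted p = 0.00328), the inflammasome sensor Nlrp3 (-1.99 ± 0.42, adjusted p = 0.0193, -2.61 without eGFP-NP 1-2) and the amplifying receptor Trem1 (-1.82 ± 0.38, adjusted p = 0.0197) were lower as well. Trem2, a lipid-sensing relative of Trem1, was not called (1.27 ± 0.47, adjusted p = 0.103), but was without eGFP-NP 1-2 (0.47, adjusted p = 0.0011).

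**Figure D3:**
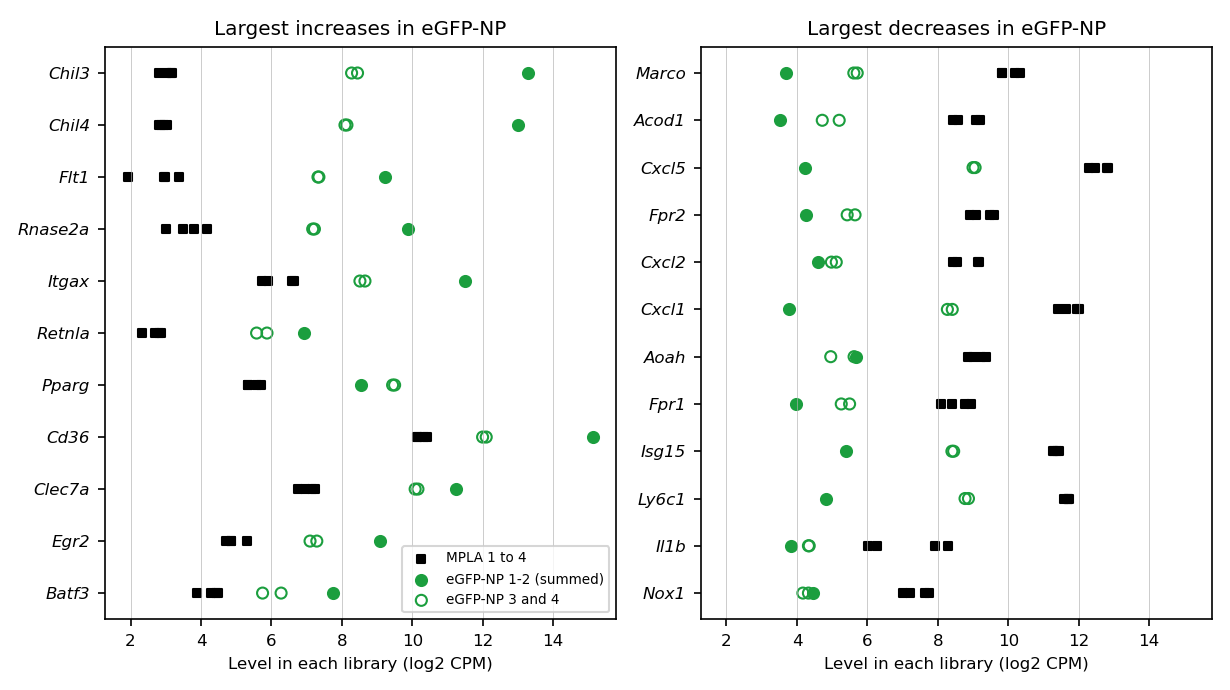
Level in each library (log2 CPM) of called genes with the largest increase (left, 11 genes) and the largest decrease (right, 12 genes) among genes whose groups did not overlap and whose higher group was above background in every library, MPLA as black squares, eGFP-NP 1-2 as filled circles, eGFP-NP 3 and 4 as open circles. Nox1 lay close together in the 3 eGFP-NP libraries (4.46, 4.33 and 4.17), all below background. Chil3 (13.28 against 8.28 and 8.44) and Cxcl5 (4.23 against 9.06 and 9.0) differed widely between eGFP-NP 1-2 and the others.

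The gene of TLR4 itself was not called. Of 7 genes of lipopolysaccharide recognition in the table, 2 were called, both lower in eGFP-NP (12.5% of all genes were), and the median difference was -0.00. Without eGFP-NP 1-2, 3 were called lower and 1 higher (29.8% and 26.9% of all genes in that fit). Cd14, the co-receptor, had 12993, 8695, 8997 and 12263 counts in MPLA and 1539, 1595, 498 and 439 in eGFP-NP (-2.90 ± 0.47, adjusted p = 0.00634), -3.51 without eGFP-NP 1-2. Nfkbia, the inhibitor IκBα that NF-κB induces against itself, was at 1062 to 1452 counts in MPLA and nearly the same level in all eGFP-NP libraries (7.60, 7.58 and 7.61 log2 CPM), a difference of -1.93 ± 0.16 (adjusted p = 0.000451). The differences of Tlr4 (0.16 ± 0.28, adjusted p = 0.712), the adaptor Myd88 (-0.00 ± 0.17, adjusted p = 0.996) and the NF-κB subunit Nfkb1 (0.17 ± 0.22, adjusted p = 0.595) were smaller than their errors, though Nfkb1 was called without eGFP-NP 1-2 (0.45, adjusted p = 0.0011). Aoah, an enzyme that removes acyl chains from lipopolysaccharide and so inactivates it, lay outside the lists among the 12 largest decreases, with 811 to 1137 counts in MPLA and 61, 46, 46 and 25 in eGFP-NP (-3.71 ± 0.26, adjusted p = 0.000331).

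Of 31 TLR-induced genes, 13 were called lower and 2 higher in eGFP-NP, against 12.5% and 7.16% of all genes, and 20 lay lower in all eGFP-NP libraries (25.2% of all genes did). The median difference was -1.28. Without eGFP-NP 1-2, 18 were called lower and 2 higher, against 29.8% and 26.9% of all genes in that fit. Without 1 MPLA library 9 or 10 were lower and 1 higher. Positive control scaling gave 22 lower and 0 higher, against 368 and 17 of all genes. All samples in the fit gave 7 lower and 0 higher, and the methods' t-test after Benjamini-Yekutieli adjustment 5 lower and 1 higher. Acod1, whose product makes the antimicrobial metabolite itaconate, gave 1037, 610, 621 and 938 counts in MPLA and 11, 11, 34 and 21 in eGFP-NP (-4.33 ± 0.49, adjusted p = 0.00182). It was below background in eGFP-NP 1 and 2 and close to it in eGFP-NP 3 and 4, so the size of its difference is uncertain. Il1b, the precursor of interleukin-1β, had 546, 121, 115 and 418 counts in MPLA and 19, 9, 18 and 16 in eGFP-NP, all below background, at least 4.94-fold lower (adjusted p = 0.0186). Here MPLA 1 and 4 were several times above MPLA 2 and 3, the same pairs that were nearly identical in all counts. Tnf, encoding tumour necrosis factor, was at 1050 to 1518 counts in MPLA and 227, 257, 99 and 102 in eGFP-NP (-2.31 ± 0.33, adjusted p = 0.00443). Cd86, a co-stimulatory ligand for T cells, was lower, from 249 to 298 counts in MPLA to 45, 51, 30 and 29 (-2.11 ± 0.19, adjusted p = 0.000744), as was the co-stimulatory receptor Cd40 (-1.99 ± 0.26, adjusted p = 0.00371). Il1a was called lower (adjusted p = 0.000451) but reached only 37 to 44 counts in MPLA and was below background in every eGFP-NP library, so no fold is given.

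The 2 genes called higher in this list were Cd80 and Irf5. Cd80, a co-stimulatory ligand like Cd86, had 273 to 311 counts in MPLA and 329, 332, 268 and 252 in eGFP-NP (0.82 ± 0.13, adjusted p = 0.00693). Irf5, the factor whose mRNA the other nanoparticles of the study carry, had 1409, 1163, 1173 and 1327 counts in MPLA and 2495, 2645, 1182 and 1046 in eGFP-NP. The difference was 1.14 ± 0.27 (adjusted p = 0.0277), and 0.82 without eGFP-NP 1-2, in cells that received eGFP mRNA alone. The call was lost with any 1 MPLA library left out (adjusted p = 0.0771 to 0.082), with all samples in the fit (adjusted p = 0.137), with nearly identical pairs summed, with the methods' t-test after either adjustment and with positive control scaling (0.16, adjusted p = 0.756), where no gene of this list was called higher. Nos2, the inducible nitric oxide synthase, was not called (-1.28 ± 0.45, adjusted p = 0.091), nor was Il6 (-2.30 ± 0.70, adjusted p = 0.0613).

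Chemokines were mostly lower where they were called. Of 34 in the table, 9 were called lower and 1 higher, the latter Ccl21a, which was below background throughout, against 12.5% and 7.16% of all genes. With any 1 MPLA library left out 4 were called lower. Without eGFP-NP 1-2 there were 15 lower and 3 higher, against 29.8% and 26.9% of all genes in that fit. Cxcl2, a neutrophil attractant, gave 1024, 594, 631 and 977 counts in MPLA and 16, 34, 29 and 28 in eGFP-NP (-4.02 ± 0.30, adjusted p = 0.000346), near or below background in every eGFP-NP library. Cxcl1, which also attracts neutrophils, had 7347, 5123, 4966 and 6848 counts in MPLA and 15, 12, 295 and 284 in eGFP-NP (-4.01 ± 1.03, adjusted p = 0.0368), -3.38 without eGFP-NP 1-2. Cxcl5 had 12941, 8971, 9068 and 12286 in MPLA and 20, 18, 510 and 428 in eGFP-NP (-4.15 ± 1.07, adjusted p = 0.0376), -3.52 without eGFP-NP 1-2. Both lost the call with any 1 MPLA library left out. Within eGFP-NP both were above background only in eGFP-NP 3 and 4, which also held the fibroblast genes, whose part in this difference was not tested. The monocyte and T cell attractants Ccl3 (3906 to 4954 counts in MPLA, 822, 819, 315 and 243 in eGFP-NP) and Ccl4 (987 to 1256, and 201, 178, 79 and 77) differed by -2.50 ± 0.39 (adjusted p = 0.00598) and -2.49 ± 0.31 (adjusted p = 0.00258). Cxcl16, a scavenger receptor and chemokine in 1 molecule, was lower by less (-1.54 ± 0.29, adjusted p = 0.0127). Ccl2, the main monocyte attractant and the most abundant chemokine, was not called (-0.48 ± 0.49, adjusted p = 0.524), with 29087 to 52803 counts in MPLA and 6463, 6775, 20383 and 18325 in eGFP-NP.

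Among genes called lower, Cxcl1, Cxcl2 and the NF-κB inhibitor Nfkbia are shown as examples whose windows held the NF-κB motif, GGGA and CC with 4 bases between them. Matches on either strand are in capitals, and overlapping matches run together. Il1b, Il1a and Ccl3, also called lower, held no match, while Chil3, Cd36 and Irf4, called higher, held 1 each. Cxcl1 (chr5:90890995-90891244, plus strand) held 3 matches, the first at -90, Cxcl2 (chr5:90903649-90903898, plus strand) 2 overlapping matches, the first at -97, and Nfkbia (chr12:55492648-55492897, minus strand) 2, the first at -212.
Cxcl1: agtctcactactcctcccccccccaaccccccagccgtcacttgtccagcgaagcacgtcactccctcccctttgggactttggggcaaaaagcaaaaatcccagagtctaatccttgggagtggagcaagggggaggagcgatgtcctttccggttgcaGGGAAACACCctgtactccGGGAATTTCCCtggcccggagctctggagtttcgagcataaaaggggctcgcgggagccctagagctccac
Cxcl2: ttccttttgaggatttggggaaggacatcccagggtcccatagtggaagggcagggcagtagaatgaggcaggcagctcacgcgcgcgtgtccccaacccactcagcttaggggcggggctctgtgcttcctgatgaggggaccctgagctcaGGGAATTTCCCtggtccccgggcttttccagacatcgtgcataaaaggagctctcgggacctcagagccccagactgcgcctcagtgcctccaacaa
Nfkbia: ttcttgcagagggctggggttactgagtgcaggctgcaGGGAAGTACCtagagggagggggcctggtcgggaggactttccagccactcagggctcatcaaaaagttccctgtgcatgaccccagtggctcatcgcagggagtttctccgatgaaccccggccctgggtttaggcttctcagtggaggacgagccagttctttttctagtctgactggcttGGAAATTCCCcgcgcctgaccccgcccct
Counted by gene as above, the motif was in 26 of 71 genes called lower (36.6%) and 14 of 44 called higher (31.8%). It was in 30.4% of the genes of the table and 19.7% of those of the assembly. The interferon-stimulated element, GAAA and GAAA with 2 bases between them, was in 7.04% and 4.55% of genes called lower and higher. It was in 5.88% of the genes of the table and 3.46% of those of the assembly.

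Interferon genes were called lower in 5 of 11 and higher in none, against 12.5% and 7.16% of all genes. Without eGFP-NP 1-2 the calls were 8 lower and 2 higher, against 29.8% and 26.9% of all genes in that fit. DESeq2's test called 5 lower and 1 higher, against 127 and 102 of all 754 genes. Without MPLA 1, 2 or 4 there were 3 lower. Isg15, a ubiquitin-like antiviral modifier, had 4240 to 4927 counts in MPLA and 45, 44, 334 and 282 in eGFP-NP (-3.43 ± 0.72, adjusted p = 0.0193). Usp18, the protease that removes ISG15, was at 418 to 509 counts in MPLA and 57, 65, 43 and 33 in eGFP-NP (-2.53 ± 0.18, adjusted p = 0.000331). The antiviral GTPase gene Mx2 gave 152 to 177 counts in MPLA and 13, 13, 20 and 17 in eGFP-NP, all below background, at least 3.32-fold lower (adjusted p = 0.00122). Irf7, a factor that amplifies interferon production, differed by -1.99 ± 0.54 (adjusted p = 0.0428). The receptor chain Ifnar1 was not called (-0.23 ± 0.17, adjusted p = 0.379), but was without eGFP-NP 1-2 (-0.32, adjusted p = 0.0108).

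Complement genes were called lower in 5 of 9 and higher in 1, against 12.5% and 7.16% of all genes. With any 1 MPLA library left out the calls were 4 lower and 0 higher. All samples in the fit gave 1 lower and 0 higher, and the methods' t-test after Benjamini-Yekutieli adjustment 2 lower and 0 higher. Without eGFP-NP 1-2 the calls were 7 lower and 2 higher, against 29.8% and 26.9% of all genes in that fit. C3, the central component of the cascade, gave 4822 to 6267 counts in MPLA and 168, 155, 548 and 511 in eGFP-NP (-2.87 ± 0.51, adjusted p = 0.00984). C4a had 96 to 118 counts in MPLA and 7 to 12 in eGFP-NP, all below background, at least 2.23-fold lower (adjusted p = 0.000451), although C4a and its near copy may share a probe. C5ar1, the receptor for the anaphylatoxin C5a (-1.67 ± 0.23, adjusted p = 0.0039), and the C1q chains C1qa (-1.33 ± 0.29, adjusted p = 0.0223) and C1qb (-1.27 ± 0.19, adjusted p = 0.00521) were lower too. Higher was Itgax, the integrin chain CD11c of complement receptor 4 and a common dendritic cell marker, with 92, 150, 181 and 101 counts in MPLA and 3049, 3166, 349 and 337 in eGFP-NP (3.99 ± 0.82, adjusted p = 0.0178), 2.40 without eGFP-NP 1-2. Among 9 Fc receptor genes only Fcgr1, the high-affinity receptor CD64 for IgG, was called, at 1005 to 1454 counts in MPLA and 88, 89, 101 and 76 in eGFP-NP (-2.91 ± 0.21, adjusted p = 0.000331). The adaptor Tyrobp was not (0.64 ± 0.52, adjusted p = 0.421). The 1 of 9 called lower was near the 12.5% of all genes. Without eGFP-NP 1-2, Tyrobp was called lower (-0.29, adjusted p = 0.0086). In that fit 6 of the 9 were called lower, against 29.8% of all genes, and their median turned from 0.10 to -0.29.

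Formyl peptide receptors and granulocyte genes were called lower in 6 of 15 and higher in none, against 12.5% and 7.16% of all genes. Without MPLA 1 or 4 there were 4 lower, and without eGFP-NP 1-2 there were 7, against 29.8% of all genes in that fit. Fpr2 and Fpr1, receptors for bacterial N-formyl peptides, gave 864 to 1374 and 498 to 860 counts in MPLA, against 22, 17, 40 and 41 and 14, 17, 42 and 31 in eGFP-NP. The differences were -4.14 ± 0.42 (adjusted p = 0.00124) and -3.62 ± 0.45 (adjusted p = 0.00281). Background was 29.4, 30.5, 29.5 and 19.7 counts in eGFP-NP 1 to 4. Both genes were thus below it in eGFP-NP 1 and 2 and not far above it in 3 and 4, which leaves these sizes uncertain. The others were S100a8, a calcium-binding alarmin, Camp, an antimicrobial peptide, the gelatinase Mmp9 and Csf3r, the receptor for G-CSF. Defining neutrophil genes (Ly6g, Elane, Mpo, S100a9) were below background in every library of both groups. Nox1, a catalytic NADPH oxidase subunit, had 348, 234, 234 and 366 counts in MPLA and 24, 21, 18 and 14 in eGFP-NP, all below background, at least 6.02-fold lower (adjusted p = 0.000451). Cybb, the oxidase subunit of phagocytes, was not called (-1.07 ± 0.35, adjusted p = 0.0735), but was without eGFP-NP 1-2 (-1.52, adjusted p = 1.57e-06). That fit rests on the nearly identical pair eGFP-NP 3 and 4. Of the 4 oxidase genes 1 was called, lower, against 12.5% of all genes. Without eGFP-NP 1-2 there were 3, all lower, against 29.8% of all genes in that fit.

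Of 10 MHC class II genes, which present antigen to T cells, only H2-Ob was called, lower in eGFP-NP (adjusted p = 0.018), near the 12.5% of all genes, at 44 to 51 counts in MPLA and below background in eGFP-NP. The class II chain H2-Ab1 gave 2006 to 2326 counts in MPLA and 2678, 2764, 1323 and 1233 in eGFP-NP (0.52 ± 0.24, adjusted p = 0.188). Without eGFP-NP 1-2 the list had 3 called higher and 2 lower (26.9% and 29.8% of all genes in that fit). Ctss, cathepsin S, which trims the invariant chain, was not called (1.66 ± 0.52, adjusted p = 0.066), but was without eGFP-NP 1-2 (0.77, adjusted p = 1.28e-05). The latter fit rests on the nearly identical pair eGFP-NP 3 and 4. Of 18 chemokine receptor genes Ccr3 was called higher (adjusted p = 0.0223), from 17 to 21 counts, all below background, in MPLA and 76, 53, 23 and 20 in eGFP-NP, where eGFP-NP 3 was also below background. With genes required to be above background in at least 3 libraries it was not tested and no receptor was called higher. Called lower were the fractalkine receptor Cx3cr1 (825 to 1052 counts in MPLA, 89, 89, 73 and 60 in eGFP-NP, -2.81 ± 0.16, adjusted p = 0.000331) and Ccrl2 (-1.74 ± 0.39, adjusted p = 0.0241). These counts compare with 7.16% higher and 12.5% lower of all genes. Without eGFP-NP 1-2, 4 receptors were called higher and 5 lower, close to the 26.9% and 29.8% of all genes, and with any 1 MPLA library left out 0 higher and 1 lower. Among 16 proteases and inhibitors, Plau, urokinase, was called higher (0.95 ± 0.21, adjusted p = 0.0252) though its sign turned under positive control scaling (-0.09), and Mmp9 and Mmp19 lower, shares like the 7.16% and 12.5% of all genes. Without eGFP-NP 1-2, 5 of the 16 were called higher and 8 lower, against 26.9% and 29.8%. Ly6c1, a surface protein of endothelium and some leukocytes, was among the 12 largest decreases, with 5272 to 5974 counts in MPLA and 32, 27, 418 and 391 in eGFP-NP (-3.40 ± 0.89, adjusted p = 0.039), -2.79 without eGFP-NP 1-2.

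Lists of other cell types were checked in the same way. Dendritic cell markers were called higher in 4 of 9 (Itgax, Batf3, Irf4, Clec9a), against 7.16% of all genes, in 1 with any 1 MPLA library left out, and in 4 (with 2 lower) without eGFP-NP 1-2. They made up 0.0746 to 0.0803% of counts in MPLA, 0.29 and 0.296% in eGFP-NP 1 and 2 and 0.0952 and 0.094% in 3 and 4. Batf3, a factor of cross-presenting dendritic cells, gave 24 to 35 counts in MPLA and 213, 248, 73 and 44 in eGFP-NP (2.65 ± 0.50, adjusted p = 0.0123, 1.89 without eGFP-NP 1-2), whereas the defining markers Xcr1, Flt3 and Clec9a were below background in every library. Of 6 endothelial and progenitor genes, Flt1 and Cd34 (0.80 ± 0.14, adjusted p = 0.00909, turning to -0.23 under positive control scaling) were called higher, against 7.16% of all genes. The endothelial markers Cdh5 and Tek were below background in every library. None of the 4 T, B and NK cell genes, the 8 mast cell and basophil genes, the 4 cell cycle genes or the 20 housekeeping genes was called. Without eGFP-NP 1-2, 3 of the 4 cell cycle genes were called higher, and of the 20 housekeeping genes 8 were called higher and 2 lower, in a fit that called 26.9% of all genes higher and 29.8% lower. In the fibroblast list, too, none of 18 was called, with a median difference of -1.11 and errors as wide as that of Col1a2 (-1.17 ± 1.5, adjusted p = 0.607, -0.52 without eGFP-NP 1-2 with adjusted p = 0.00148). Without eGFP-NP 1-2, 10 were called lower and 5 higher. Pan-macrophage genes were called higher in 1 (Cebpa, 1.16 ± 0.23, adjusted p = 0.0162) and lower in 3 (Cd14, Cx3cr1, Fcgr1), near the 7.16% and 12.5% of all genes. Without eGFP-NP 1-2, 5 were called higher and 10 lower, against 26.9% and 29.8%. Their median of 0.46 turned to -0.30 without eGFP-NP 1-2 and to -0.46 under positive control scaling.

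**Figure D4:**
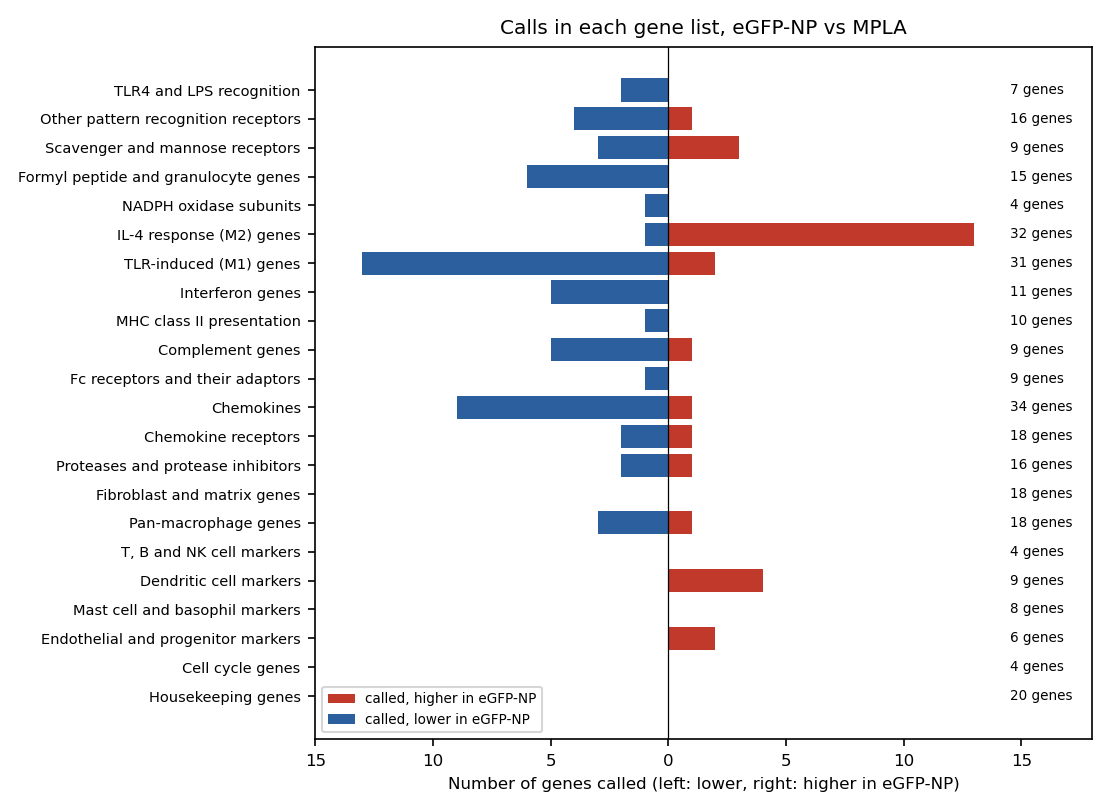
Number of genes called in each gene list, lower in eGFP-NP to the left (blue) and higher to the right (red), with the number of genes of the list in the table at the right margin. The IL-4 response list had 13 higher and 1 lower, the TLR-induced list 2 higher and 13 lower, and the chemokines 1 higher and 9 lower, against 54 higher and 94 lower of all 754 genes.

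Of the genes that the study itself shows, which are no independent evidence here, Ccl5, a T cell attractant induced in M1-like cells, gave 5159 to 5751 counts in MPLA and 101, 111, 2184 and 1873 in eGFP-NP. It lay lower in every eGFP-NP library but was not called (-1.02 ± 0.87, adjusted p = 0.441), and it was called without eGFP-NP 1-2 at a smaller difference (-0.40, adjusted p = 0.00101). Ccl11, the eosinophil attractant eotaxin, was below background in MPLA (12 to 15 counts) and in eGFP-NP 1 and 2 (7 and 5) and gave 70 and 71 counts in eGFP-NP 3 and 4 (2.72 ± 0.80, adjusted p = 0.0568). It was called without eGFP-NP 1-2 (3.36, adjusted p = 2.46e-07), with median scaling and with DESeq2's test. The first of these rests on eGFP-NP 3 and 4, a nearly identical pair. Serpinb2, an inhibitor of plasminogen activators, was below background in all 7 libraries and was not called (0.73 ± 0.37, adjusted p = 0.21). It was called without eGFP-NP 1-2 (1.18, adjusted p = 0.00524), also there from counts below background.

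To place these differences, eGFP-NP was also set against the 4 IL4 samples, macrophages of the M2-like standard without particles. The comparison shares its eGFP-NP libraries with the one above. No gene was called by edgeR's quasi-likelihood test (0% of 754), although 84 had an unadjusted p under 0.05, and DESeq2's test called 56. Values of the named genes fell into different cases. Pparg (0.61 ± 0.72, adjusted p = 0.831), Clec7a (-0.25 ± 0.61, adjusted p = 0.924) and Egr2 (-0.04 ± 0.90, adjusted p = 0.992) differed from IL4 by less than their error. They had been 3.23 to 3.75 above MPLA. Retnla was below IL4 by far more than its error (-8.31 ± 1.54, adjusted p = 0.148), so that it lay between the standards in mean. Rnase2a (-4.59 ± 1.45, adjusted p = 0.285) had the same position. C1qb was at 244 to 457 counts in eGFP-NP, 1250 to 1563 in MPLA and 4174 to 36950 in IL4, below both standards in every library (-5.10 ± 0.94 against IL4, adjusted p = 0.148). With spreads this wide between IL4 samples (13 to 2821 counts of Chil3), a missed threshold does not show that eGFP-NP and IL4 were alike.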

How the data were processed

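RNA was measured on the nCounter Myeloid Innate Immunity panel of NanoString, which counts barcoded probes on RNA without amplification. The authors deposited raw probe counts, not normalized, for 768 probes, of which 6 positive controls, 8 negative controls and 754 genes (20 of them housekeeping genes), in all 15 samples with no replicates pooled. The methods of the study describe housekeeping normalization and log2 transformation in nSolver, which these counts had not undergone. For the present comparison the counts were scaled by TMM and tested with edgeR 4.0.16 (R 4.3.3) in quasi-likelihood fits of the compared groups alone, two-sided, with no covariate and no filter, and called at a Benjamini-Hochberg adjusted p under 0.05. The standard error is the absolute difference over the square root of F. Levels are log2 CPM with a prior count of 2. Where a group was below background in all libraries and the other above it in all, a fold was given as a lower bound. It is the ratio of the groups' geometric means with the lower group set at its background, so single libraries can lie below it. Counts differ in precision with depth and have no interval beyond the spread between samples. A single gene tested by exact permutation could not go below p = 0.0571429 with 3 against 4, so no such test was run. Alternatives were DESeq2 1.42.0, limma 3.58.1 on log2 of housekeeping-normalized counts plus 1, the methods' t-test, other scalings, filters and sample sets. The edgeR step was tested on simulated data.

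The genes and lists were chosen with earlier results of these data known. Genes named were the 5 that the study shows, the 12 largest increases and decreases among called genes with separate groups, the higher of which lay above background throughout, and for each list up to 4 called genes with the smallest p and the most abundant gene not called. Others were named after their values were seen, namely Adgre1, C1qa, Camp, Ccl21a, Cd40, Cd80, Cdh5, Csf1r, Ear3, Edn1, Elane, Flt3, H2-Ab1, Hpgd, Il6, Irf7, Itgam, Lgals3, Ly6g, Mpo, Mrc1, Myd88, Nos2, S100a8, S100a9, Tek, Tlr4, Tnf, Trem1 and Xcr1, and the genes of the closing observations. Some genes that met this rule are not reported here, though they are in the counts. Promoter windows came from RefSeq by symbol (744 current symbols, 9 synonyms, 1 unmatched).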

Additional observations from a re-analysis of the deposited data

Results flagged for a closer look

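In 3 of the 80 named genes, 1 of the 4 MPLA libraries lay far from the other 3, which chance gives in about 5% of groups. Ctss, cathepsin S, was at 13.7 log2 CPM in MPLA 2 against 13.6 in the others. Tyrobp, an adaptor of activating receptors, was at 13.1 log2 CPM (13.07) in MPLA 2 against 12.95 in the others. Ppia, a housekeeping gene, was at 14.7 log2 CPM (14.66) in MPLA 3 against 14.83 to 14.84 in the others. None of the 3 genes was called between eGFP-NP and MPLA.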

How the results depend on the processing

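Of the 148 genes called between eGFP-NP and MPLA, the count moved to 385 with positive control scaling, 229 with DESeq2's test, 50 with the methods' t-test after Benjamini-Yekutieli adjustment, 50 with all samples in the fit, and 0 with nearly identical pairs summed. Leaving out 1 sample gave 74 to 428 calls, the lowest without MPLA 1 and the highest without eGFP-NP 1-2, with 77, 87 and 75 without MPLA 2, 3 and 4. The share of calls that were higher in eGFP-NP was 36.5%, and it was 4.42% with positive control scaling, 50.6% with median scaling, 25.9% with limma, 24.5% with the methods' t-test after Benjamini-Hochberg adjustment and 47.4% without eGFP-NP 1-2. Samples share replicate numbers, but same-numbered samples did not deviate together (correlations -0.138, 0.041, -0.097 and -0.025), so the numbers do not pair them. A fit with the replicate block, which needs eGFP-NP 1 and 2 as separate samples, called 81 genes (22 higher, 59 lower), against 189 (77 higher, 112 lower) in the like fit of separate samples without the block, and 0 against IL4, where that fit called 6. Against IL4, 0 calls became 2 with positive control scaling, 56 with DESeq2's test, 1 with the methods' t-test under either adjustment, 1 with background subtracted, 17 with all samples, 6 with eGFP-NP 1 and 2 separate, 1 with pairs summed, and 0 to 2 with 1 sample left out. Of the 58 named genes that were called, 16 kept the call in all these alternatives but the summing of pairs, which lost all 58, and 55 kept their direction throughout. Differences that turned sign with positive control scaling were those of Serpinb2 (-0.37), Nfkb1 (-0.95), C3ar1 (-0.027), Tyrobp (-0.23), Plau (-0.090), Ctsd (-0.34), Ms4a1 (-0.61), Clec9a (-0.11), Cd34 (-0.23) and Cdkn1a (-0.73). Of the 22 list medians, 8 kept their sign in every alternative (IL-4 response, TLR-induced, interferon, complement, chemokine, NADPH oxidase, other pattern recognition receptor and fibroblast lists) and 14 turned in at least 1. Of these, 12 turned with positive control scaling, from -0.11 (dendritic cell) to -1.03 (housekeeping), and further turns were -0.24 (protease), -0.29 (Fc receptor) and -0.30 (pan-macrophage) without eGFP-NP 1-2, -0.38 (chemokine receptor) with the background filter, -1.84 (T, B and NK cell) with background subtracted, -0.17 (protease and Fc receptor) with limma and with the methods' t-test, 0.06 (granulocyte) without eGFP-NP 4, and up to 0.17 (TLR4) in 12 alternatives. The remaining turns lay between -0.14 and 0.02. With 1 sample left out, the sign turned without eGFP-NP 1-2 for Tyrobp (range -0.29 to 1.09), Ctsd (-0.32 to 0.97), Gata2 (-0.50 to 0.18), Cdkn1a (-0.16 to 0.52) and Ppia (-0.23 to 0.0068). Mmp8 turned to 0.025 with median scaling, 0.14 with eGFP-NP 1 and 2 separate, 0.13 with pairs summed, 0.31 without eGFP-NP 3 and 0.16 without eGFP-NP 4 (range -1.35 to 0.31). Cxcr4 turned without eGFP-NP 3 (range -1.15 to 0.017), Irf8 without eGFP-NP 3 (0.052) or 4 (0.00037; range -0.71 to 0.052), and with background subtracted Ms4a1 was at -0.63 and Clec9a at 0. The cause was not tested. Genes below background in a group have only a bound there.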

Other observations

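Genes outside the lists, chosen here after their values were seen, included some with roles in sterol and lipid metabolism, for which no list was counted. Insig1, which holds back the sterol-sensing factor SREBP and is itself its target, gave 3384, 3687, 3957 and 3189 counts in MPLA and 824, 803, 709 and 604 in eGFP-NP (log2 difference with SE -1.48 ± 0.16, adjusted p = 0.00136 by edgeR). The ATP citrate lyase gene Acly (-0.86 ± 0.17, adjusted p = 0.0168) was also lower, whereas Lpl, lipoprotein lipase, was higher (1.72 ± 0.44, adjusted p = 0.0361).

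Single genes outside the lists that were also lower in eGFP-NP, picked for their values and with no count of like genes behind them, were the adaptor gene Traf1 (-2.82 ± 0.29, adjusted p = 0.00124), the inhibitor genes Nfkbie (-1.35 ± 0.15, adjusted p = 0.00177) and Nfkbiz (-2.27 ± 0.53, adjusted p = 0.0277), the kinase gene Ikbke (-1.29 ± 0.15, adjusted p = 0.00182) and the ubiquitin ligase gene Birc3 (-1.09 ± 0.16, adjusted p = 0.00482). Cd69, an early activation antigen of leukocytes, had 201, 149, 165 and 180 counts in MPLA and 16, 14, 15 and 14 in eGFP-NP, all below background, at least 3.60-fold lower (adjusted p = 0.000331). Gata6, the factor of resident peritoneal macrophages, was the opposite case, below background in MPLA (21 to 31 counts) and at 36, 37, 54 and 38 counts in eGFP-NP, with adjusted p = 0.00435.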
